A study of Mus musculus with 22 samples.

Results

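The serum burst genes are 66 of the 11208 genes measured in NIH/3T3 cells, an immortal line of mouse embryonic fibroblasts, carrying a stably integrated empty vector (EV). They were chosen by their measured values: on the log2(value + 1) scale the mean after 2 h of serum stood at least 2 above the mean of starved cells, and the mean after 12 h of serum lay less than 0.5 above and less than 1 below it. A further 4 genes met these numbers, Egr2, Fosb, Junb and Klf4, and were set aside because their symbols belong to the AP-1, EGR, NR4A, KLF, DUSP and Sprouty families. In all, 381 genes stood at least 2 higher at 2 h, and 305 of these were still at least 0.5 higher at 12 h. The difference between serum and starvation at 2 and 12 h in the EV line is therefore the criterion of choice and is described here without a test.

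The series asked how E2F1, a transcription factor that activates genes of DNA replication, brings resting cells back into the cell cycle. Both lines, one with a doxycycline-inducible E2F1 construct and the other with EV, were starved for 48 h in medium with 0.25% serum, and 0 h libraries were taken at that point. EV cells then received 10% serum, or 500 ng/ml doxycycline, for 2, 6 or 12 h, and E2F1 cells received doxycycline for the same times. The labels do not give the serum content of the medium during doxycycline. Each of the 11 groups has 2 libraries, numbered 1 and 2, and values below are given in that order. The labels do not say that the 2 come from separate cultures, so p-values measure the spread between these libraries, which may be technical. Each line carries its own integrated construct, so in comparisons of the lines the line and the induced E2F1 cannot be told apart.

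When serum reaches resting fibroblasts, receptor kinases and their signalling routes switch on a first set of genes that needs no new protein synthesis. Many of these immediate early transcripts are unstable, and the first products include inhibitors and RNA-degrading proteins that shut the signal and the transcripts down again. Serum response factor with its actin-sensing and ERK-driven partners, AP-1, CREB and NF-kB are the transcription factors best known for this response. Of 42 listed immediate early genes in the table, 21 stood at least 2 higher at 2 h. Of these, 14 were still at least 0.5 higher at 12 h. The burst genes on the list are 2, Arc and Trib1. Many symbols on it belong to the families set aside, among them Egr2, Fosb, Junb and Klf4, so this count is partly fixed in advance. Whether the burst genes need new protein was not measured.

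Promoters are described first. The joint rise of the 66 genes at 2 h is the criterion of choice and is no evidence of shared control. RefSeq promoter windows on GRCm38.p6 (250 bases before to 50 after the gene start) were found for 38 of the 66 genes and for 8609 genes of the table. Vcl is shown for a CArG box, the site bound by serum response factor, Hivep1 for a kB site, the site of NF-kB and of the HIVEP zinc fingers themselves, and Lbh for a TATA box placed 29 bases before the start. These 3 were picked after the matches were seen. Each line gives the 250 bases before the start on the plus strand, 5′ to 3′, with the matched motif in capitals.
Vcl, chr14:20929148-20929397: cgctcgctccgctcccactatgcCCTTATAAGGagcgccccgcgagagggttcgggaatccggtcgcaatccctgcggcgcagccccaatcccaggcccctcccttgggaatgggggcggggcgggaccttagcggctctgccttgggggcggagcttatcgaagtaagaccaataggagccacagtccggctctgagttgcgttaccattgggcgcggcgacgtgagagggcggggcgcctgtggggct
Hivep1, chr13:42051771-42052020: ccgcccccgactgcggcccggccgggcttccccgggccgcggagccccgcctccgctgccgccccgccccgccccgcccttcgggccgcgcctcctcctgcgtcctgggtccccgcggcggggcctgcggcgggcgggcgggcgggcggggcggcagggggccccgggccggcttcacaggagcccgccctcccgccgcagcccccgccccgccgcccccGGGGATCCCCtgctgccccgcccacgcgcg
Lbh, chr17:72918055-72918304: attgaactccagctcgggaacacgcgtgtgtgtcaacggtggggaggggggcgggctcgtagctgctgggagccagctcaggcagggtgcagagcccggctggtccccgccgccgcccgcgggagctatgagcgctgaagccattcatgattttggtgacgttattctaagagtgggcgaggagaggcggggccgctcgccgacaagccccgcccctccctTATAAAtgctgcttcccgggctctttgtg
The CArG box of Vcl begins 227 bases before the start and the kB site of Hivep1 begins 30 bases before it.

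Motif matches, sought on both strands of the first listed window, describe letters and not binding. A CArG box was in 2 of the 38 windows (5.26%), those of Vcl and Gm28321, and in 1.25% of the 8609. A kB site was in 8 (21.1%, against 10.1%), those of Adarb1, Col27a1, Grasp, Hip1r, Hivep1, Mdga1, Pxdc1 and Vcl. TATAAA was in 6 (15.8%, against 6.40%) and the GC box GGGCGG in 33 (86.8%, against 68.0%). Shares of the other motifs lay closer to those of all genes or rested on 1 or 2 windows. The CRE TGACGTCA was in 2 (5.26%, against 3.53%), its core TGACG, which the CRE contains, in 12 (31.6%, against 34.0%), and AP-1 TGANTCA in 2 (5.26%, against 4.39%). The E-box CACGTG was in 2 (5.26%, against 10.6%), STAT TTCNNNGAA in 1 (2.63%, against 6.62%), TEAD GGAATG in 5 (13.2%, against 11.5%), and the E2F forms TTTGGCGC, TTTCCCGC or TTTCGCGC in 2 (5.26%, against 4.02%), Csrp1 and Rasal2. The windows of the burst genes had a median GC content of 65.8%, against 61.7% over all windows.

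Several library facts touch the results. Library totals ran from 34014608 to 46057140 normalized counts, and the highest were the 2 serum 2 h libraries at 45073651 and 46057140. Of 12 fibroblast markers 12 were in the table, of 5 macrophage and leukocyte markers 1 was, Csf1r at 33 to 735, and of 5 epithelial and 4 endothelial markers none was. The gene E2f1 stood at 1703 and 1637 in starved cells of the E2F1 line, 1535 and 1755 after 2 h of doxycycline, 3806 and 3602 at 6 h, and 2683 and 2845 at 12 h, and whether the construct is counted there is not stated in the sources used here. The Y-linked gene Ddx3y was far higher in the E2F1 line (580 and 521 when starved) than in EV (9 and 4). It stood at 103 and 71 in EV doxycycline 2 h and at 132 and 170 in EV serum 2 h. The other EV libraries held 4 to 48. In the E2F1 line Ddx3y was lowest at 2 h of doxycycline, at 329 and 316. It was at 415 and 435 there at 6 h and at 546 and 446 at 12 h. A set of 13 further genes, chosen after seeing the data, was 8-fold or more above EV in the E2F1 line, with a starved mean of at least 100 there. Over these the EV doxycycline 2 h libraries lay a median 15.5% and 17.5% of the way from the EV to the E2F1 level at 0 h. The EV serum 2 h libraries lay at 10.4% and 13.6%. Single genes were uneven: in EV serum 2 h Arhgap28 lay at −3.6% and −2.5%, and Nes at 531% and 489%. The part of this signal in the results was not tested. It bears on 5 burst genes whose starved level in the E2F1 line was itself 2-fold or more above EV, Smoc2, Arc, Ptk2b, Acsl6 and Mark1 (1.61% of all genes were as much higher), and counts without these 5 are given with the EV doxycycline and line comparisons.

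After 2 h of serum the burst genes stood a median 2.55 above 0 h on the log2 scale (range 2.00 to 4.84), against 0.03 over all genes. The rule fixes this size, and in bulk RNA more transcript per cell and more cells with the transcript cannot be told apart. Both serum 2 h libraries lay above the 12 other EV libraries for 65 of the 66 genes, where 18.7% of all genes did, and above the 20 other libraries of both lines for 56, where 14.3% of all genes did. The rule used the serum 2 h, serum 12 h and EV 0 h libraries, so nothing is read from these counts. Gmppb was the exception within the EV line. At 6 h of serum the median over 0 h was 0.74 (−0.32 to 2.38), and 22 genes were still at least 2-fold higher, where 10.7% of all genes were; the 0 h libraries entered the rule, and this too is a description. Of the log2 difference at 2 h, a median 28.1% was left at 6 h. The remainder was 25% or less for 27 genes and over 50% for 9. Both 6 h libraries lay below both 2 h libraries for 65 genes. The 2 h libraries entered the rule and the share over all genes was not counted, so nothing is read from that count. At 12 h the median was 0.13, inside the bounds the rule sets.

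**Figure D1:**
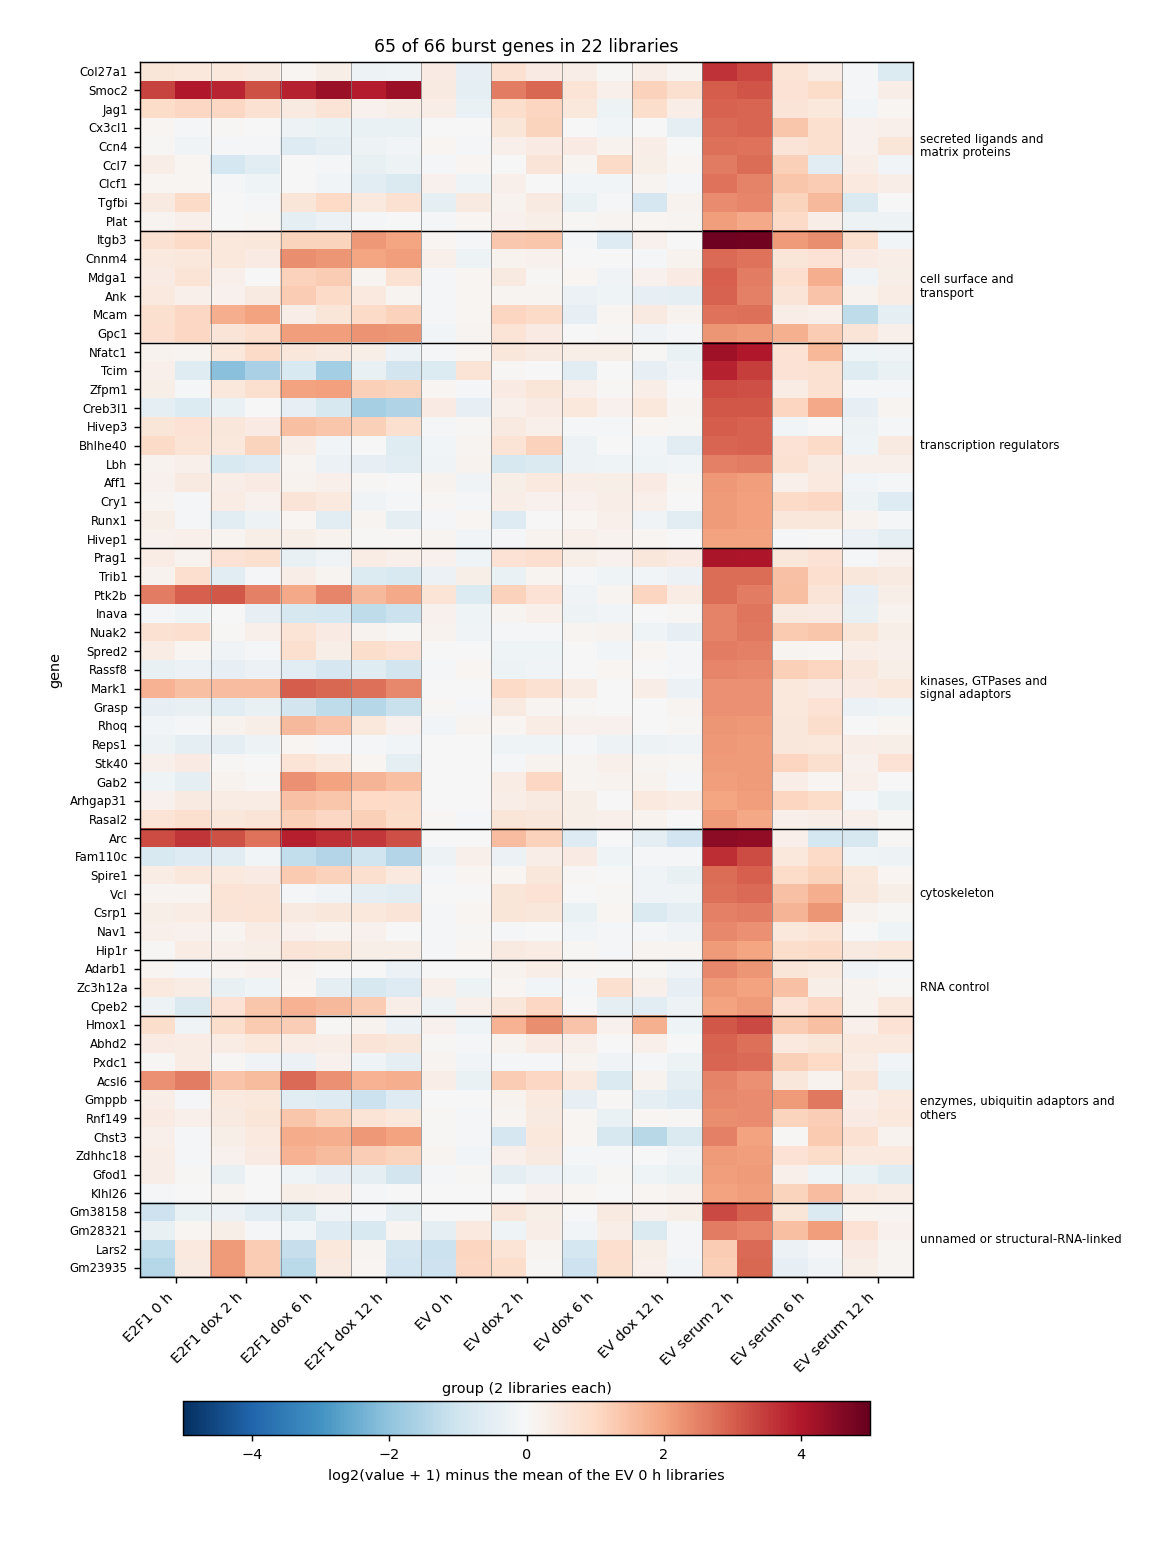
Heat map of 65 of the 66 burst genes (rows, grouped by role) in the 22 libraries (columns, 2 per group), coloured by log2(value + 1) minus the mean of the EV 0 h libraries. The EV serum 2 h columns are red throughout because the genes were chosen on them, the 6 h columns are paler, and Smoc2, Arc, Ptk2b, Acsl6 and Mark1 are red in the E2F1 line at every time.

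The rule's edges are narrow. Just inside the 2 h threshold were Plat at 2.0044 and Hivep1 at 2.0073, and just outside it Flnc at 1.9977 and Map3k4 at 1.9931. At 12 h Trib1 (0.499) and Hmox1 (0.4922) were just inside the upper bound, and Mat2a (0.5046) and Arl4c (0.5047) just outside. On the lower side Mcam (−0.8564) was inside, and Atf3 (−1.0203) and Serpina3n (−1.1409) outside. The genes set aside by symbol behaved alike at 2 h: Egr2 went from 185 and 368 at 0 h to 4707 and 4575, Fosb from 143 and 216 to 977 and 988, Junb from 2486 and 2782 to 11300 and 10896, and Klf4 from 1268 and 1053 to 5401 and 5670. Fosb was below its starved values at 6 h, at 61 and 82.

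Secreted signals made up the first group, with 10 ligands and matrix proteins. Cx3cl1, the membrane-bound chemokine fractalkine, went from 1695 and 1764 normalized counts at 0 h through 12178 and 12995 after 2 h of serum to 4465 and 2982 at 6 h and 2000 and 2084 at 12 h. Ccl7, a monocyte chemokine, went from 1125 and 1316 through 7425 and 8462 to 2808 and 812 at 6 h, where its libraries disagreed, and 1526 and 1119 at 12 h. Clcf1, a cytokine of the interleukin-6 family, kept more: 1796 and 1337 at 0 h, 10125 and 8652 at 2 h, 4020 and 3742 at 6 h, and 2157 and 1970 at 12 h. Jag1, a Notch ligand, went from 732 and 458 to 4483 and 4303 and was at 902 and 826 at 6 h. Among matrix genes, Col27a1, a fibrillar collagen, went from 1612 and 936 to 14858 and 12598 and back to 1955 and 1593 at 6 h. Plat, tissue plasminogen activator, went from 4083 and 4589 to 18601 and 16222. Ccn4, Tgfbi and Smoc2, all secreted matrix-associated proteins, were 2.72, 2.39 and 3.10 above 0 h at 2 h on the log2 scale.

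Of the listed cytokines, chemokines and inflammatory enzymes, 21 were in the table and 12 stood at least 2 higher at 2 h; 9 of these 12 were still at least 0.5 higher at 12 h, among 305 of 381 such genes over the table. Ccl7, Clcf1 and Cx3cl1 were the 3 burst genes among them. Of 42 growth factors and developmental ligands, 15 stood at least 2 higher, 13 of them were still at least 0.5 higher at 12 h, and Jag1 was among the burst genes.

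At the cell surface, Itgb3, the integrin beta 3 chain of vitronectin and fibrinogen receptors (chr11:104608000-104670476, plus strand), had the largest 2 h difference of the set, 4.84. It was at 177 and 154 at 0 h, 4870 and 4670 at 2 h of serum, 732 and 840 at 6 h, and 285 and 149 at 12 h. Every 6 h value lay well above every starved value and well below every 2 h value. Ank, a pyrophosphate and ATP exporter of the plasma membrane, went from 9336 and 10422 to 75668 and 56889, then 15375 and 26640 at 6 h. Gpc1, a heparan sulfate proteoglycan that binds growth factors, went from 2096 and 2512 to 10472 and 10108 and was still at 7929 and 5526 at 6 h. The adhesion proteins Mcam and Mdga1 and the magnesium transport protein Cnnm4 stood 2.73, 2.76 and 2.78 higher at 2 h, and Mcam at 6 h was back at 93 and 87, against 68 and 80 at 0 h.

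Transcription regulators numbered 11. Nfatc1, the calcineurin-dependent factor, went from 487 and 553 at 0 h to 9714 and 8337 at 2 h, 868 and 1650 at 6 h, and 452 and 456 at 12 h. Hivep3, a large zinc finger protein that binds kB sites, went from 1236 and 1314 to 10370 and 9906 and was back at 1167 and 1260 by 6 h. Hivep1 went from 1090 and 900 to 3961 and 4009 and was at 946 and 980 at 6 h. In both HIVEP genes the 6 h libraries lay within or beside the starved range. Bhlhe40, a repressor tied to the circadian clock, went from 413 and 499 to 3380 and 3543, with 758 and 874 left at 6 h. Runx1 went from 950 and 1100 to 4426 and 4183. Zfpm1, the GATA cofactor also called FOG1, went from 567 and 498 to 5112 and 4942 and was at 690 and 910 at 6 h. Creb3l1, a membrane-bound factor of collagen secretion, and the clock repressor Cry1 kept 47.8% and 48.1% of their log2 difference at 6 h. Tcim, Aff1 and Lbh complete the group, and Lbh, a cofactor whose TATA box is shown above, went from 8222 and 10473 to 53063 and 53945. Of 98 listed transcription factors in the table, 19 stood at least 2 higher at 2 h and 12 of these were still at least 0.5 higher at 12 h.

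Kinases, GTPase regulators and adaptors formed the largest group, with 15 genes. Trib1, a pseudokinase that directs ubiquitin ligases to their targets, went from 1107 and 1634 to 9287 and 9327, and was at 3750 and 2416 at 6 h and 1976 and 1829 at 12 h. Spred2, an inhibitor of the Ras to ERK route, went from 1512 and 1494 to 8923 and 8726 and was back at 1665 and 1615 by 6 h. Stk40, a pseudokinase related to Trib1, went from 1045 and 1018 to 4528 and 4569, then 2158 and 1790. Prag1, a pseudokinase scaffold, had the largest difference of the group, from 321 and 233 to 4683 and 4481, with 404 and 447 at 6 h. The GTPase-activating proteins Arhgap31 and Rasal2 went from 1592 and 1510 to 6114 and 6520 and from 1017 and 963 to 4283 and 3733. The small GTPase Rhoq went from 2844 and 3468 to 14613 and 14042. The adaptor Gab2, which links receptors to PI3K and SHP2, went from 276 and 264 to 1140 and 1198 and was at 344 and 287 at 6 h. Rassf8, Reps1, Grasp, Inava and the kinases Nuak2, Mark1 and Ptk2b had 2 h differences of 2.15 to 2.67. Of 102 listed kinases, phosphatases and signal inhibitors, 26 stood at least 2 higher at 2 h and 21 of them were still at least 0.5 higher at 12 h.

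Cytoskeletal genes numbered 7. Vcl, vinculin of focal adhesions (chr14:20929398-21033676, plus strand), went from 8081 and 8524 at 0 h to 55570 and 58630 at 2 h, 22699 and 29231 at 6 h, and 12315 and 10173 at 12 h. Csrp1, a LIM protein of actin bundles, went from 2975 and 3430 to 18535 and 19067 and still held 10280 and 14747 at 6 h, which is 76.1% of its log2 difference. Arc, best known as an immediate early gene of neurons, went from 28 and 29 to 661 and 645 and was at 34 and 15 at 6 h. Its serum 2 h values also exceeded the E2F1 line's 279 and 353 at 0 h. Spire1, an actin nucleator, the microtubule-binding Nav1, the clathrin and actin adaptor Hip1r and the centrosome-associated Fam110c had differences of 2.05 to 3.49. Of 55 listed cytoskeletal and adhesion targets of serum response factor and YAP, 18 stood at least 2 higher at 2 h, and 16 of the 18 were still at least 0.5 higher at 12 h. Arc and Vcl were the burst genes of that list.

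RNA control was represented by 3 genes. Zc3h12a, the endonuclease Regnase-1 that cuts inflammatory transcripts, went from 320 and 228 to 1197 and 1098, with 744 and 332 at 6 h. Cpeb2, which binds the polyadenylation element of 3′ ends, went from 132 and 187 to 640 and 685, with 262 and 327 at 6 h. The double-stranded RNA deaminase Adarb1 had a difference of 2.31. Of the 42 listed RNA-binding and decay factors in the table, 4 stood at least 2 higher at 2 h, and 2 of the 4 were these burst genes.

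Enzymes and other genes made up 10 more. Gmppb, which makes GDP-mannose for glycosylation (chr9:108049242-108052801, plus strand), was the one gene with no decline by 6 h: 483 and 481 at 0 h, 2520 and 2502 at 2 h, 2127 and 2977 at 6 h, and 610 and 676 at 12 h. It overlaps Rnf123 on the other strand, and whether the counting used strand is not stated in the sources used here. Hmox1, the haem-degrading enzyme of the stress response, went from 1389 and 1052 to 10327 and 11908, then 2939 and 3430. Its doxycycline libraries were also high and spread, at 4082 and 6066 at 2 h, 3289 and 1408 at 6 h and 4116 and 1055 at 12 h. Abhd2, Acsl6, Chst3, Gfod1, Pxdc1, Zdhhc18, Rnf149 and Klhl26 had 2 h differences of 2.06 to 2.87.

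A last group of 4 holds 3 genes without a protein product in the annotation and Lars2, the mitochondrial leucyl-tRNA synthetase. Gm23935, annotated as a miRNA gene of 57 bases (chr16:11144125-11144181), and Lars2 moved together: their ratio was 1.64 to 2.15 in the 22 libraries, while Gm23935 itself ran from 13470 to 267481 and Lars2 from 8218 to 136615. In several groups the 2 libraries differed widely in both genes, while those of serum 6 h (26983 and 32225 of Gm23935) and serum 12 h (44671 and 39422) were close. The EV 0 h libraries held 17576 and 74233 of Gm23935, the serum 2 h libraries 82146 and 267481, and the E2F1 doxycycline 2 h libraries 159884 and 87284. The structural RNA Rn7sk was high in some of the same libraries, at 44 and 628 in EV 0 h, 72 and 3606 in serum 2 h and 1145 and 1020 in E2F1 doxycycline 2 h. Neither met the rule without serum 2 h library 2 or without either EV 0 h library. Gm28321 went from 85 and 164 to 698 and 641, with 336 and 502 at 6 h, and Gm38158 from 96 and 91 to 926 and 725, with 144 and 57.

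**Figure D2:**
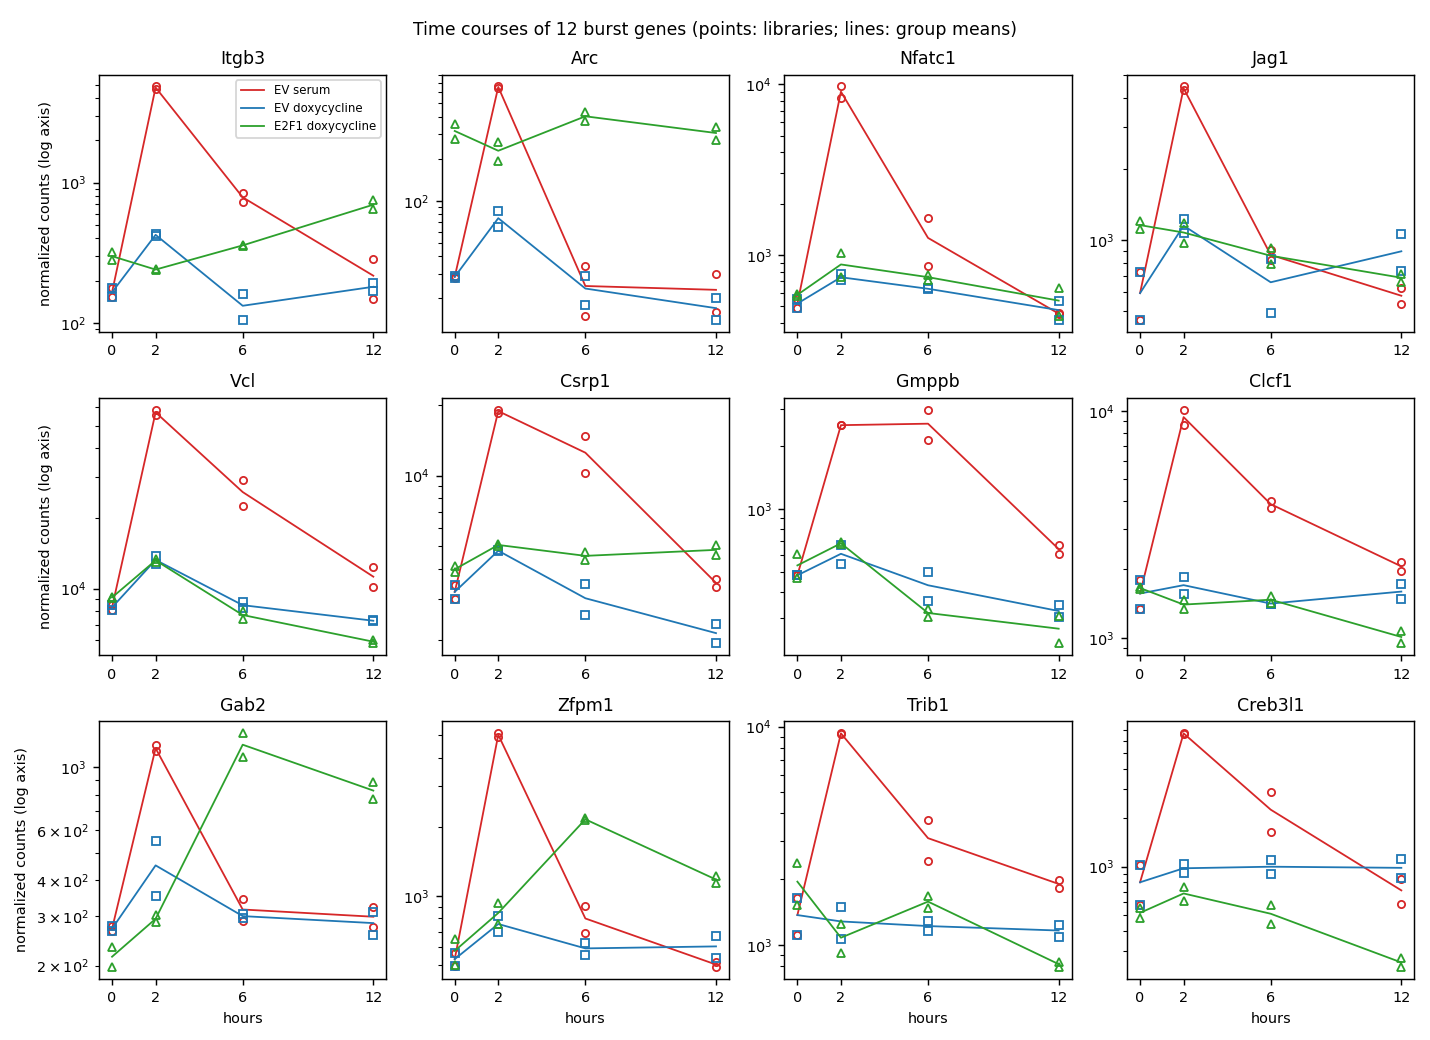
Normalized counts (log axis) of 12 burst genes against hours after stimulation, with each library as a point and group means joined by lines; red circles are EV serum, blue squares EV doxycycline and green triangles E2F1 doxycycline. Each red line peaks at 2 h except that of Gmppb, which is as high at 6 h, and the green lines of Gab2 and Zfpm1 are highest at 6 h.

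How much of the burst was left after 6 h was tested against EV cells given doxycycline for 6 h. Neither group entered the rule. Across genes, though, the difference between libraries 1 and 2 correlated between EV doxycycline 6 h and EV 0 h, which the rule used (r 0.45). The part of this in the counts was not tested. The groups also differ in doxycycline, which the serum labels do not name, and the serum content during doxycycline is not in the labels. By limma with Benjamini-Hochberg adjustment over 11208 genes, 42 burst genes were higher in serum, 1 was lower and 23 did not pass, that is 63.6% higher, where 35.8% of all genes were higher and 30.0% lower. The median difference was 0.68 on the log2 scale, against 0.04 over all genes. With an added 2-fold limit 21 remained. The share of all genes with that limit was not counted, so nothing particular to the burst genes is read from the 21. Higher counts by role were 11 of 15 kinases, GTPases and adaptors, 7 of 11 transcription regulators, 5 of 7 cytoskeletal genes, 5 of 6 surface genes and 5 of 10 secreted ones.

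Itgb3 rose most: 732 and 840 in serum against 160 and 105 in doxycycline, a log2 difference of 2.59 ± 0.23 (SE, n = 2 per group, limma adjusted p = 1.76e-08). Gmppb stood at 2127 and 2977 against 365 and 499 (2.56 ± 0.19, limma adjusted p = 1.29e-09). Csrp1 stood at 10280 and 14747 against 2562 and 3457 (2.05 ± 0.14, limma adjusted p = 7.86e-10). In each of these 3 genes the lower serum library was over the higher doxycycline library by more than either pair differed. Vcl (1.60 ± 0.10), Tgfbi (1.57 ± 0.32), Gpc1 (1.52 ± 0.15) and Clcf1 (1.46 ± 0.13) were also higher, with limma adjusted p of 2.05e-10, 0.000272, 5.12e-08 and 1.42e-08. Trib1 (1.30), Ank (1.28), Nuak2 (1.20), Cx3cl1 (1.13), Creb3l1 (1.12), Cpeb2 (1.12), Bhlhe40 (0.98) and Nfatc1 (0.91) were higher too, the last with limma adjusted p = 0.00173 (0.0722 without serum 6 h library 2). Tgfbi, Gpc1, Nuak2 and Creb3l1 were named after their values were seen.

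At the other end, some large bursts did not pass this test at 6 h. Arc differed by −0.01 ± 0.38 (limma adjusted p = 0.979) and Ccl7 by −0.24 ± 0.37 (limma adjusted p = 0.586), and a p that misses the threshold does not show equal levels. Of the 66 differences 58 were above 0, and Hivep1 was the 1 gene called lower, at 946 and 980 against 1179 and 1125 (−0.26 ± 0.11, limma adjusted p = 0.0465). That call was lost when only the 4 libraries compared were fitted, and when any 1 of them was left out (highest adjusted p = 0.176).

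**Figure D3:**
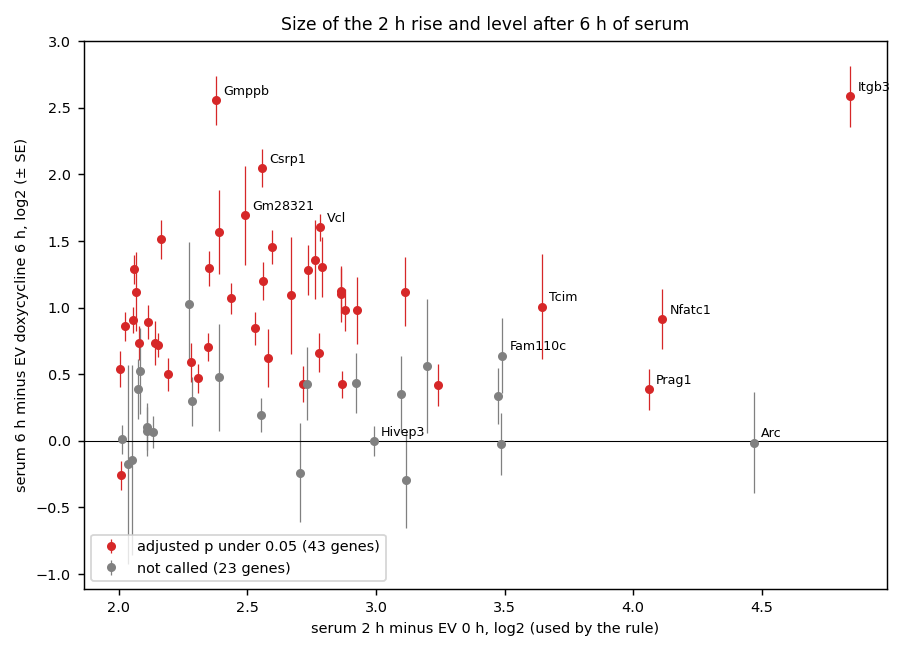
Log2 difference between serum 6 h and EV doxycycline 6 h (vertical axis, bars are SE) against the 2 h difference used by the rule (horizontal axis, log2) for the 66 burst genes; red points passed adjusted p under 0.05. Itgb3 is high on both axes, Gmppb and Csrp1 are high at 6 h with middling 2 h values, and Arc has a large 2 h difference and lies near 0 at 6 h.

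Related gene lists were counted in the same comparison, where 35.8% of all genes were higher and 30.0% lower, with a median of 0.04. Of 55 targets of serum response factor and YAP, 45 were higher than in doxycycline and 2 lower, with a median of 1.20. Of 42 immediate early genes 23 were higher and 8 lower (median 0.75), and of 21 cytokines, chemokines and inflammatory enzymes 12 were higher and 2 lower (median 0.96). Of 30 NF-kB pathway and feedback genes 5 were higher and 16 lower (median −0.37). These lists hold burst genes and others, and neither a list nor a difference between lists was tested.

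In EV cells some burst genes also stood above 0 h at 2 h of doxycycline. Smoc2, Hmox1, Itgb3, Arc, Acsl6 and Mcam were at least 2-fold higher, 6 of 66, where 0.883% of all genes were, and Smoc2, Arc and Acsl6 are among the 5 genes set higher in the E2F1 line. Because the 0 h libraries entered the rule, the 2 h doxycycline libraries were tested against those at 6 h. There 15 burst genes were higher and 1 was lower, where 3.81% and 2.65% of all genes were, and the median was 0.28 against 0.02. That comparison may not be free of the rule. Across genes, the difference between libraries 1 and 2 correlated between EV 0 h and EV doxycycline 6 h (r 0.45). For EV 0 h and EV doxycycline 2 h r was −0.01. The part of this in the counts was not tested. Smoc2 was at 846 and 1064 at 2 h and 229 and 171 at 6 h (2.26 ± 0.28, limma adjusted p = 0.000234). Itgb3 was at 419 and 430 and then 160 and 105 (1.70 ± 0.23, limma adjusted p = 0.000469). Mcam was at 155 and 144 and then 56 and 79 (1.16 ± 0.27, limma adjusted p = 0.0169). In each of the 3 genes both 2 h libraries were above both 6 h libraries.

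Arc was at 85 and 65 at 2 h of doxycycline against 18 and 29 at 6 h (1.66 ± 0.38, limma adjusted p = 0.0141), and Lbh went the other way, from 5286 and 5606 at 2 h to 7820 and 7999 at 6 h (−0.54 ± 0.12 for 2 h minus 6 h, limma adjusted p = 0.0138). Bhlhe40 (1.05), Cpeb2 (1.04), Cx3cl1 (0.91) and Jag1 (0.84) were higher at 2 h, while Hmox1 (1.21 ± 0.50, limma adjusted p = 0.157) did not pass. The count rests on few libraries: it fell from 16 to between 3 and 8 when 1 library was left out, with 3 left without EV doxycycline 2 h library 2, and to 13 without the 5 genes set higher in the E2F1 line. The same 2 libraries carry the raised Ddx3y and E2F1-line genes described above, whose part in these differences was not tested. Other called genes were just under 2-fold higher in the E2F1 line at 0 h, as Jag1 (0.99 on the log2 scale), Gpc1 (0.94) and Mcam (0.93). Some were not, as Cx3cl1 (0.02) and Cpeb2 (−0.48). Itgb3 and Mcam at 2 h of doxycycline, at 419 and 430 and at 155 and 144, were above the E2F1 line's 0 h values of 279 and 319 for the former and beside 131 and 152 for the latter.

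**Figure D4:**
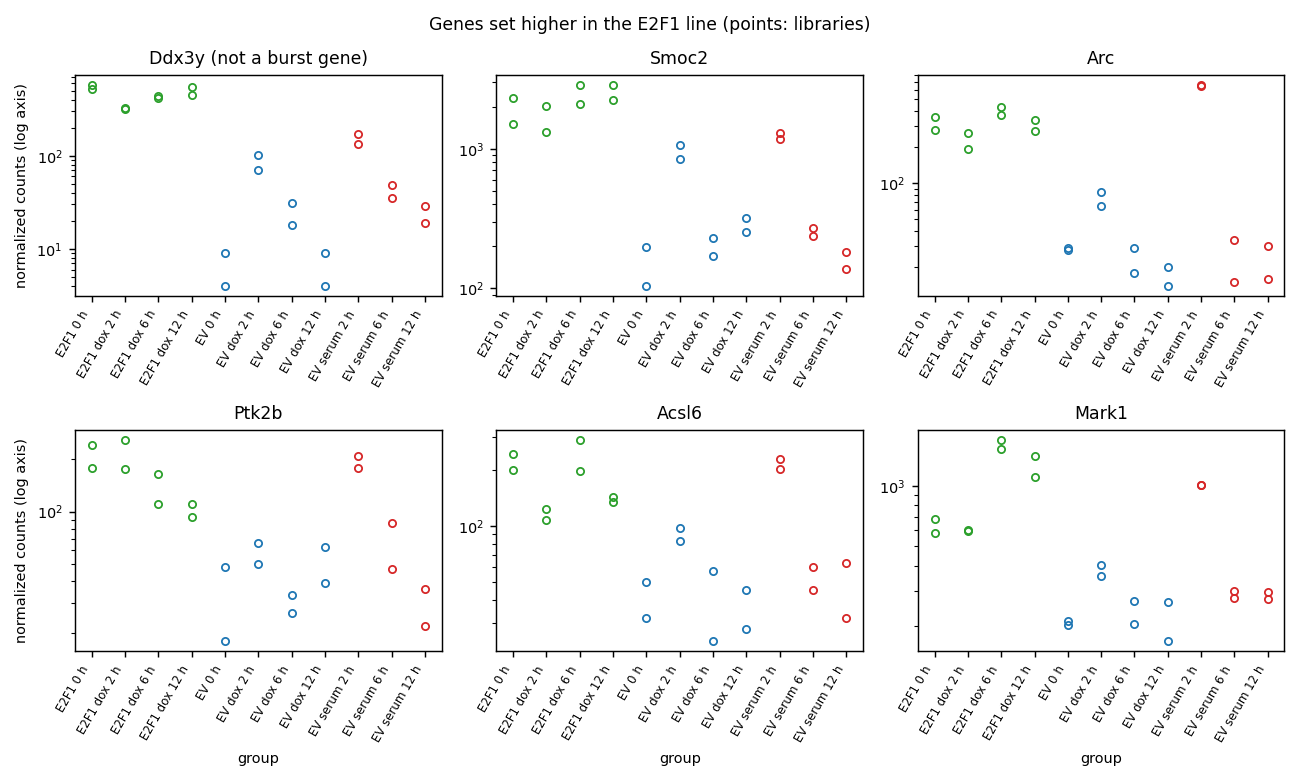
Normalized counts (log axis) by group for Ddx3y and the 5 burst genes with a starved level in the E2F1 line 2-fold or more above EV; points are libraries, green E2F1 line, blue EV line at 0 h or with doxycycline, red EV serum. Ddx3y is raised in EV doxycycline 2 h and EV serum 2 h relative to EV 0 h, and Arc and Mark1 in EV serum 2 h lie above the E2F1 line's 0 h values.

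These 5 genes need their own reading. At 0 h Smoc2, a secreted calcium-binding matrix protein, was at 1498 and 2312 in the E2F1 line against 199 and 104 in EV, and it reached 1181 and 1297 in EV at 2 h of serum. Ptk2b, the calcium-responsive kinase PYK2, was at 178 and 243 against 48 and 18, and reached 208 and 179. Acsl6, a fatty acyl-CoA synthetase, was at 200 and 243 against 50 and 32, and reached 228 and 201. Mark1, a microtubule-regulating kinase, was at 683 and 580 against 202 and 211, and reached 1016 and 1005. Only Arc and Mark1 among the 5 exceeded both E2F1 0 h libraries in both serum 2 h libraries. Leaving the 5 out gives 61 burst genes.

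In the E2F1 line, whose libraries the rule did not use, doxycycline for 2 h gave little of the serum pattern. Compared with 0 h, 2 burst genes were higher and 3 lower by limma with Benjamini-Hochberg adjustment, where 0.865% and 0.99% of all genes were, and the median was −0.01. Cpeb2 rose from 133 and 95 to 258 and 410 (1.52 ± 0.30, limma adjusted p = 0.0121). Vcl rose from 9130 and 9185 to 13355 and 13062 (0.53 ± 0.10, limma adjusted p = 0.0101). Tcim, a small regulator of Wnt signalling, fell from 207 and 116 to 40 and 56 (−1.69 ± 0.39, limma adjusted p = 0.0341). Lbh fell from 10606 and 10968 to 5489 and 5865 (−0.93 ± 0.12, limma adjusted p = 0.000951), and Nuak2, an AMPK-related kinase, from 966 and 1027 to 583 and 680 (−0.66 ± 0.14, limma adjusted p = 0.0202). In each of the 5 the 2 groups did not overlap. EV cells, which lack the E2F1 construct, moved in the same direction in 3 of these genes at 2 h. Vcl went from 8081 and 8524 at 0 h to 12749 and 13788, Lbh from 8222 and 10473 to 5286 and 5606, and Cpeb2 from 132 and 187 to 236 and 324. Tcim in EV was at 108 and 285 and then 185 and 178, and Nuak2 at 642 and 500 and then 530 and 530. The 2 h steps of the lines were not tested against each other. Ddx3y was also lower in the E2F1 line at 2 h of doxycycline, at 329 and 316 against 580 and 521 at 0 h. What this means for the calls was not tested. Gm23935 and Lars2 had larger differences, 2.21 ± 0.75 and 2.07 ± 0.71, that did not pass (limma adjusted p = 0.152 and 0.162). Calls at 2 h depended on single libraries: between 1 and 3 were left when 1 library was left out, 1 of them without E2F1 0 h library 2 or E2F1 doxycycline 2 h library 2. Lbh, at less than 2-fold, kept its call in each alternative without a 2-fold limit.

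After 6 h of doxycycline 20 burst genes were higher and 11 lower than at 0 h in the E2F1 line, and 35 did not pass, where 28.8% of all genes were higher and 22.9% lower. The burst genes made 30.3% and 16.7%. The median was 0.05, against −0.03 over all genes. Gab2 rose from 232 and 198 to 1322 and 1085 (2.48 ± 0.18, limma adjusted p = 3.81e-09). Cpeb2 rose to 523 and 479 (2.14 ± 0.30, limma adjusted p = 9.9e-06), and Zfpm1 from 653 and 504 to 2138 and 2178 (1.91 ± 0.16, limma adjusted p = 1.18e-08). The Gab2 values at 6 h lay on either side of the 1140 and 1198 of EV cells at 2 h of serum.

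Further genes, named after their values were seen, rose at least 2-fold at 6 h: Cnnm4 (1.76), Chst3 (1.74), Rhoq (1.63), Zdhhc18 (1.51), Mark1 (1.35, one of the 5 set higher in this line at 0 h), Gpc1 (1.15) and Arhgap31 (1.11). Rhoq went from 2868 and 2993 to 9624 and 8539 (limma adjusted p = 4.55e-09). Ank rose by 0.73 ± 0.19 (limma adjusted p = 0.00388). Among falls, Tcim was at 103 and 54 (−1.04 ± 0.39, limma adjusted p = 0.0342), Gmppb went from 609 and 466 to 331 and 306 (−0.74 ± 0.19, limma adjusted p = 0.00293), and Grasp, a scaffold of receptor trafficking, from 438 and 447 to 301 and 235 (−0.73 ± 0.15, limma adjusted p = 0.000484). Bhlhe40 fell by 0.71 on the log2 scale (limma adjusted p = 0.0243). The split of rises and falls moved with scaling, to 17 and 18 with quantile normalization and 18 and 16 with equal totals, and to 17 and 3 without E2F1 0 h library 1. The calls of Tcim, Gmppb, Bhlhe40 and Ank were each lost when 1 library was left out, with highest adjusted p of 0.314, 0.0552, 0.206 and 0.0572, and that of Tcim with quantile normalization too.

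By 12 h 15 burst genes were higher and 18 lower than at 0 h, which is 22.7% and 27.3% of them, where 31.8% and 29.7% of all genes were, and the median was −0.14 (−0.02 over all genes). Quantile normalization gave 13 and 24. Chst3, a chondroitin sulfotransferase, rose from 65 and 52 to 248 and 223 (2.00 ± 0.46, limma adjusted p = 0.00106), Gab2 to 886 and 772 (1.94 ± 0.18, limma adjusted p = 6.4e-08) and Cnnm4 from 369 and 378 to 1053 and 1125 (1.54 ± 0.15, limma adjusted p = 6.03e-08). Itgb3 rose later than these: it was at 279 and 319 at 0 h, 354 and 360 at 6 h (0.26 ± 0.23, limma adjusted p = 0.36) and 746 and 647 at 12 h (1.22 ± 0.23, limma adjusted p = 0.000171).

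The largest falls at 12 h, in burst genes with a mean of at least 100, were in Trib1, Zc3h12a and Bhlhe40. Trib1 fell from 1520 and 2378 to 840 and 794 (−1.22 ± 0.23, limma adjusted p = 0.000141), Zc3h12a from 378 and 349 to 153 and 171 (−1.16 ± 0.32, limma adjusted p = 0.00448) and Bhlhe40 from 888 and 728 to 452 and 299 (−1.13 ± 0.25, limma adjusted p = 0.000791). In all 3 the 12 h libraries lay below both 0 h libraries. Creb3l1 (−1.02), Jag1 (−0.74) and Clcf1 (−0.72) fell as well, as did Gmppb (limma adjusted p = 0.000141) and Inava (limma adjusted p = 0.000664). Jag1 lost its call without E2F1 0 h library 2 or E2F1 doxycycline 12 h library 1 (highest adjusted p = 0.0520). Of 42 immediate early genes, 4 were higher and 23 lower at 12 h (median −0.58), and of 21 cytokines, chemokines and inflammatory enzymes 1 was higher and 10 lower (median −0.60), where 31.8% of all genes were higher and 29.7% lower. Across both times 14 burst genes were higher and 7 lower at 6 and 12 h. A further 10 were called at 6 h and not 12 h, 12 at 12 h and not 6 h, and 23 at neither. The 2 times share the 0 h libraries and the pattern was not counted over all genes, so nothing particular to the burst genes is read from it.

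**Figure D5:**
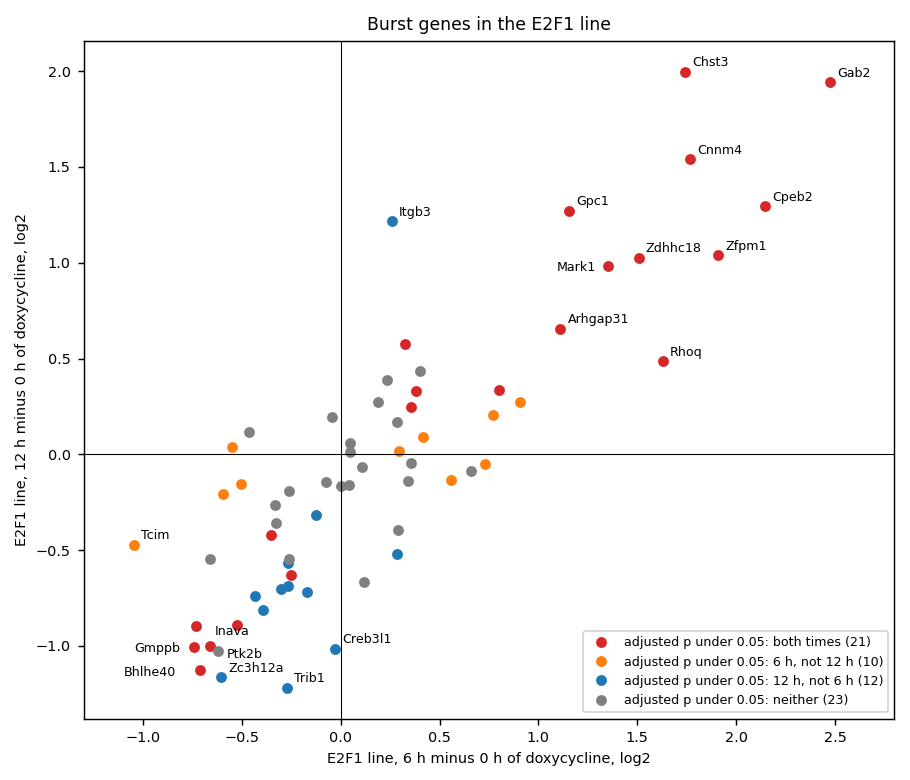
Log2 difference from 0 h in the E2F1 line after 12 h (vertical axis) against 6 h (horizontal axis) of doxycycline for the 66 burst genes, coloured by whether adjusted p was under 0.05 at each time. Gab2, Chst3, Cnnm4, Cpeb2 and Zfpm1 are at upper right, Itgb3 is raised at 12 h alone, and Trib1, Zc3h12a and Bhlhe40 are lowest at 12 h. The 2 differences share the 0 h libraries.

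Set against EV cells with the same hours of doxycycline, 29 burst genes were higher and 9 lower in the E2F1 line at 6 h, where 33.0% and 27.2% of all genes were, with a median of 0.26 against 0.01. At 12 h 26 were higher and 10 lower, where 36.3% and 32.8% were, with a median of 0.09 against 0.02. Quantile normalization gave 26 and 16 at 6 h and 24 and 18 at 12 h. At 0 h, before doxycycline, the burst genes already stood a median 0.22 higher in the E2F1 line, against 0.02 over all genes. Of the 66, 50 were above 0. The EV 0 h libraries entered the rule, so this is a description, and its part in the later differences was not tested. The largest differences at 6 h were in genes already higher in the E2F1 line at 0 h, as were those of Arc and Smoc2 at 12 h. Arc was at 433 and 372 against 18 and 29 at 6 h (4.07 ± 0.38, limma adjusted p = 4.98e-08) and 338 and 273 against 20 and 14 at 12 h (4.10 ± 0.38, limma adjusted p = 2.52e-08). Smoc2 differed by 3.63 ± 0.28 at 6 h (limma adjusted p = 4.87e-09) and 3.15 ± 0.28 at 12 h (limma adjusted p = 1.65e-08), and Mark1 by 2.78 ± 0.18 at 6 h (limma adjusted p = 5.21e-10). Without the 5 line-associated genes the calls went from 38 to 33 at 6 h and from 36 to 31 at 12 h.

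Other line differences were in genes less than 2-fold apart at 0 h. Gab2 was 2.00 ± 0.18 higher at 6 h (limma adjusted p = 3.98e-08) and 1.55 ± 0.18 at 12 h (limma adjusted p = 6.01e-07), and Zfpm1 1.86 ± 0.16 higher at 6 h (limma adjusted p = 1.06e-08). Chst3 differed by 3.14 ± 0.46 at 12 h (limma adjusted p = 7.85e-06), close to the difference of Smoc2. Its EV doxycycline 12 h libraries held 20 and 33, against 57 and 52 at EV 0 h. Fam110c was lower at 6 h, 73 and 62 against 233 and 149 (−1.46 ± 0.28, limma adjusted p = 0.000233). Grasp was lower at both times (−1.15 and −1.35), having stood at 438 and 447 against 605 and 547 at 0 h, as was Creb3l1, at 582 and 440 against 1102 and 894 at 6 h (−0.97 ± 0.26, limma adjusted p = 0.00373) and 240 and 271 against 1117 and 847 at 12 h (−1.93 ± 0.26, limma adjusted p = 3.05e-06). Inava was lower at 12 h (−1.19 ± 0.22, limma adjusted p = 0.000103).

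The step from 6 to 12 h of doxycycline was then compared between the lines, a test added after seeing the data. It passed for 9 of the 66 burst genes, a smaller share than the 21.3% of all genes. In each of the 9 the step was lower in the E2F1 line. Directions over all genes were not counted, so nothing particular to the burst genes is read from this. Rhoq is the clearest: it went from 9624 and 8539 to 4588 and 3677 in the E2F1 line and from 3668 and 3687 to 3187 and 3296 in EV.

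The authors' deposited tables of changes over 0 h listed all 66 burst genes as higher at 2 h of serum, with log2 changes of 2.02 to 4.86. In the authors' deposited table for 6 h of serum 2 were listed, Gmppb and Itgb3, and for 12 h none. For the E2F1 line the authors' deposited tables listed no burst gene at 2 h, Cpeb2 and Gab2 at 6 h, and Chst3 at 12 h. In each of the authors' deposited tables the listed burst genes had log2 changes of 2.02 or more. A gene not listed may thus have changed by less, and these counts cannot be set against the limma calls above. The counts at 2 and 12 h of serum largely follow from the rule. Those tables hold the same libraries and are no separate evidence.

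As gene models (GENCODE M21, GRCm38), 63 of the 66 were protein coding, with a median gene length of 44856 bases against 25032 for the coding genes of the table, and a median longest transcript of 4151 against 3541 bases. The 3′ untranslated regions had a median length of 1735 against 1251 bases. The pentamer ATTTA, the core of AU-rich elements that shorten the life of many early transcripts, occurred at a median of 1.41 per kilobase of this region against 1.38, and 13 burst genes (20.6%, against 24.6%) held 5 or more. Arc had no ATTTA in a region of 1668 bases. The density of this motif was thus near that of all coding genes. Another gene on the other strand overlapped 25 burst genes (37.9%, against 43.9%), among them Vcl with Ap3m1, Rhoq with Pigf, Hip1r with Vps37b and Ank with Otulin, so counts of these genes are uncertain where strand was not used.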

How the data were processed

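RNA of 22 NIH/3T3 libraries in 11 groups of 2, mapped from the labels, was analysed from a table that gives, per the file headers, a normalized count for each of 11208 genes and library. These whole numbers were treated as a score, because the authors scaled and rounded the counts before they were deposited. The submitters' processing notes name FastQC, Trimmomatic, HISAT2, featureCounts, DESeq2 and the build mm10. Versions and the strand setting are not given in the sources used here. Further tables hold a log2 fold change and an adjusted p-value against 0 h as the authors deposited them, and were used only to count listed genes.

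The test was limma 3.58.1 (R 4.3.3) on log2(value + 1): a mean for each group over 22 libraries, 11 residual degrees of freedom, empirical Bayes moderation with a trend, and Benjamini-Hochberg adjustment over all genes at 0.05. Fold changes on this scale understate those of low genes. Every gene had at least 10 in 2 or more libraries. The script was tested on simulated data.

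Members, lists and comparisons were chosen with earlier results of these data known, and roles after the members were known. Named genes were, per list, up to 4 members of largest 2 h difference with a serum 2 h mean of at least 500; per comparison, up to 3 rises and 3 falls with a mean of at least 100 and no overlap; the genes at each threshold; and the 10 highest at 2 h. Each member but 1, which is not reported here, is also named once by its role; others are said to be chosen later. Sequences are from RefSeq and gene models from GENCODE M21, both GRCm38, the genome of mm10. Alternatives were a pseudocount of 8, other scalings, other thresholds, a replicate block, fits of only the groups compared and leaving out libraries. Read depth behind the scaled values is unknown, so no counting intervals are given.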

Additional observations from a re-analysis of the deposited data

Results flagged for a closer look

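The change from 6 to 12 h of doxycycline differed between the E2F1 and EV lines for 9 of the 66 burst genes. This was a limma interaction contrast adjusted over 11208 genes and added after seeing the data. A larger share of all genes passed it, 21.3%, and their directions were not counted. Values are the log2 step in the E2F1 line minus that in EV. They were −0.96 for the small GTPase Rhoq, −0.89 for the GATA cofactor Zfpm1, −0.84 for the ubiquitin ligase Rnf149 and −0.75 for Arhgap31. Clcf1 and Stk40 were at −0.72 each, Hivep3 at −0.61, Cry1 at −0.54 and Hip1r at −0.46. The line and E2F1 cannot be told apart in this contrast.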

How the results depend on the processing

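The set of 66 depends on its thresholds: a 2 h limit of 1.5 gave 157 genes and a limit of 3 gave 13. Leaving out 1 library gave 60 to 70 genes, of which 47 to 63 were in the set; quantile normalization gave 57 (35 shared) and equal totals 47 (40 shared). Scaling to equal totals moved the median of all genes at serum 2 h from 0.03 to −0.34, for serum 6 h against doxycycline 6 h from 0.04 to −0.17 and for E2F1 6 h from −0.03 to −0.15 (−0.14 with quantile normalization). Called burst genes also past 2-fold were 2 of 5 (E2F1 2 h), 11 of 31 (6 h), 14 of 33 (12 h), 21 of 43 (serum 6 h), 6 of 16 (EV doxycycline 2 h against 6 h), 23 of 38 and 17 of 36 (lines at 6 and 12 h). Shares of all genes with the 2-fold limit were not counted. Fitting only the groups compared gave 16 calls for E2F1 2 h. When 1 library was left out, with the lone one assumed to vary like other groups, calls ran 1 to 3, 20 to 27, 28 to 31, 38 to 42, 3 to 8, 34 to 37 and 30 to 34 in the same order. A replicate block gave 5, 31, 33, 43, 17, 38 and 37. Same-numbered libraries deviated together in some pairs of groups and not in others (55 pairs, r −0.28 to 0.45, 18 over 0.1). Within each line r was 0.14 to 0.45 among the 0 h and the 6 and 12 h doxycycline groups, against −0.22 for E2F1 0 h with 2 h and −0.16 for EV doxycycline 2 h with 6 h. The labels do not tie the numbers to shared cultures, and the fits without the block were kept. Of 84 named calls 65 held in every alternative other than the 2-fold limit, which was not applied to them, and none reversed. Differences without a call that changed sign, serum 6 h against doxycycline 6 h: Arc 0.003 with a pseudocount of 8, 0.99 with quantile normalization and −0.58 to 0.55 with 1 library left out, and Ccl7 −1.13 to 0.66 with 1 left out. The leave-out tests and the set without 5 line-associated genes were added after seeing the data. The causes were not tested.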
